A study of Mus musculus with 2 samples.

Results

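Simple epithelial keratins were described here through their 5 listed members, Krt7, Krt8, Krt18, Krt19 and Krt20, of the 19550 genes with a row in the count matrix. The members were taken by name, and each was followed as a level and as a share of cells with at least 1 UMI (unique molecular identifier, a counted mRNA molecule) in the cells labelled squamous, columnar or "Stromal-2". These classes held 2409 of the 7808 cells. The study dissociated the esophagus, the gastro-esophageal squamocolumnar junction (GE-SCJ) and the stomach of wild type C57BL/6 mice and asked how the squamous and columnar lineages that meet at the junction arise. Tissue came from embryonic day 15 (E15, 6 mice), embryonic day 19 (E19, 2 mice), pups at day 2 (2 mice) and adults of 8 weeks (3 mice), with no transgene and no treatment. These numbers of mice are those of the series record, and the study's methods describe another number, so they are uncertain. Mice of the same region and stage were combined under 1 oligonucleotide tag, and all tags were sequenced in 1 gene expression library, so each region and stage is 1 sample, mice cannot be told apart, and no comparison between groups carries a test. Of 12 combinations of region and stage, 11 held cells. The adult stomach was not analysed here.

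Keratins are intermediate filament proteins that give epithelial cells mechanical strength. A filament needs a type I partner and a type II partner in equal amounts, and simple (single-layered) and stratified epithelia use different partners. Krt8 (type II) and Krt18 (type I) form the main filament of simple epithelia, including the gastric glands. Krt7 (type II) and Krt19 (type I) are typical of ducts and of mesothelium, the lining of the body cavities, and Krt20 (type I) of the surface cells of the gastrointestinal lining. Stratified squamous epithelium uses Krt5 and Krt14 in its basal layer and Krt4 and Krt13 above it. Krt19 and Krt20 lie on chromosome 11, and the other members on chromosome 15.

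Levels are given in CPM, the UMIs of a gene per 1000000 UMIs summed over the cells of a group, with exact Poisson 95% intervals. Shares above 0 carry exact Clopper-Pearson intervals, a share of 0 carries the limit set by 3 counts of the total, and all intervals cover counting error only, not the spread between mice. A gene was called when its log2 ratio between 2 groups reached 1 in either direction (2-fold) and it had at least 100 UMIs over both groups. The same rule was applied to all genes, and the percent of them called is given beside the first count of members in each comparison. UMIs of a 3′ kit mark transcript ends and were not scaled by transcript length. Cells labelled squamous (730 cells) had a median of 11996.5 UMIs, columnar cells (1540) 25118 and Stromal-2 cells (139) 8353. Squamous marker genes summed to 31960 CPM in squamous cells against 149 CPM in columnar cells, and columnar markers to 31930 CPM in columnar cells against 1923 CPM in squamous cells. Stromal-2 cells carried all 6 mesothelial markers of a fixed list at a summed 2486 CPM, against 9.89 CPM in Stromal cells, while their fibroblast markers summed to 10199 CPM against 26079 CPM, so they are called here by their label.

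The members differed in where their UMIs lay. Krt8 (ENSMUSG00000049382.10) had 84955 UMIs, 88.3% of them in columnar and 5.68% in squamous cells. Krt18 (ENSMUSG00000023043.7) had 46564 UMIs, 90.1% of them in columnar cells. Krt19 (ENSMUSG00000020911.14) had 45792 UMIs, with 73.5% in columnar and 19.5% in squamous cells. Such shares also follow the number and depth of the cells in a class, and by level Krt19 was 833 CPM in squamous and 779 CPM in columnar cells. Of the 8920 squamous Krt19 UMIs, 1134 lay in 29 pup esophageal cells of a second squamous label, Squamous Epithelial-2. The order of these 2 levels rests on that label. Krt7 (ENSMUSG00000023039.17) had most of its UMIs outside columnar cells, with 57.1% of its 12584 UMIs in squamous, 34.8% in columnar and 4.40% in Stromal-2 cells. The 29 pup esophageal cells of the second squamous label held 2206 of the 7183 squamous UMIs of Krt7. Krt20 (ENSMUSG00000035775.2) was rare, with 1008 UMIs in 235 cells and 77.8% of the UMIs in columnar cells. By level it was 15.2 CPM in squamous and 18.1 CPM in columnar cells.

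Krt8 and Krt18, whose levels across groups of all cell classes moved together most closely of all members, are neighbours in the genome. In the RefSeq annotation of GRCm38.p6, Krt8 spans chr15:101996711-102004342 on the minus strand and Krt18 chr15:102028216-102032026 on the plus strand, with 23874 bases between their start sites and 2 genes in between. Krt7 lies on the same chromosome at chr15:101412403-101427806 on the plus strand. Krt19 is at chr11:100140810-100145926 and Krt20 at chr11:99428385-99438153, and the table lists 26 keratin genes on chromosome 15 and 27 on chromosome 11. The promoters of Krt8 and Krt18 are shown because these genes moved together across those groups (Pearson r = 0.96). That of Krt7 is shown because it lies nearby and followed them less closely, at 0.66 and 0.64. Each runs 5′ to 3′ on the strand of the gene, from 250 bases before to 50 bases after its RefSeq start, and covers chr15:102004293-102004592 for Krt8, chr15:102027966-102028265 for Krt18 and chr15:101412153-101412452 for Krt7. Capitals mark matches to the letters searched on both strands, which were TATAAA for the TATA box, GGGCGG for the GC box, the CCAAT box and TGANTCA for the AP-1 motif.
Krt8: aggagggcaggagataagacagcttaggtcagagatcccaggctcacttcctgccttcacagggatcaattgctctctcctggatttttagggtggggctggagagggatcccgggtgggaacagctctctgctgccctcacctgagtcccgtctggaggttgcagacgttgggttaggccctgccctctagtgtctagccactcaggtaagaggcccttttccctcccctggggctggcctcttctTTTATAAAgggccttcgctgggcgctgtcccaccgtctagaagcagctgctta
Krt18: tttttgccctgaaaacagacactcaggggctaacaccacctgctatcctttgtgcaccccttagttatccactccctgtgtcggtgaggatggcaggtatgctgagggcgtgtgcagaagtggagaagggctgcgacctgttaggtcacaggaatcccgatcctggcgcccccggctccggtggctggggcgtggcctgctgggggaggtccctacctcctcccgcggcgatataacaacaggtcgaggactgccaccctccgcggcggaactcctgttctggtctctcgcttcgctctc
Krt7: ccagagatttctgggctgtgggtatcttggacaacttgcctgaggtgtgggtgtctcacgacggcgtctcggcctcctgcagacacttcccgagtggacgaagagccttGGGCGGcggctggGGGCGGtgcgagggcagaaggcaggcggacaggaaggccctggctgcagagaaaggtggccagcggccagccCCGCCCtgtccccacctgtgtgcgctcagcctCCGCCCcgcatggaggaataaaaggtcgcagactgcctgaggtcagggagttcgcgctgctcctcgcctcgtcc
The Krt8 window held 2 TATAAA matches, on opposite strands and overlapping. They began at -3 and -1 from the RefSeq start and so lay across it. The Krt7 window held 4 GC boxes, and the Krt18 window held none of the 4 motifs. The Krt20 window held 1 TATAAA, at -29. Among all 32851 promoter windows of this length, 13.6% held TATAAA, 35.7% the GC box, 37.4% CCAAT and 7.81% TGANTCA. GC content was 66.3% for Krt7, 61.3% for Krt18, 58% for Krt8 and 50% for Krt20, with a median of 52.7% over all windows. Of the 5 members, 4 matched a window.

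Columnar cells expressed Krt8 and Krt18 at high levels in nearly every cell, at every stage. Krt8 measured 1298 CPM at E15 (95% interval 1237 to 1361) at the GE-SCJ, then 2216 at E19, and 1199 and 1868 in pup and adult, where 53, 274, 291 and 19 columnar cells were tagged. In the stomach, with 140, 366 and 351 cells, it measured 1360, 2585 and 1324 CPM at E15, E19 and in the pup. Krt8 was thus highest at E19 in both regions, and its pup levels lay a little below those of E15. Krt18, its partner, was 783, 977, 986 and 1063 CPM at the GE-SCJ and 832, 994 and 1018 CPM in the stomach, so it was level from E19 to the pup while Krt8 was lower in the pup. Between 94.7% and 100% of columnar cells in these groups had a UMI of Krt8, and the same range held for Krt18. In immune cells, which lack these filaments, 62.2%, 51.7% and 47.7% of cells had a UMI of Krt8 at E15, E19 and in the pup, and 30.5%, 33.3% and 34.9% one of Krt18, at median depths of 11504, 8891.5 and 5935 UMIs. The immune level of Krt8 was 123 CPM at E15 and 147 at E19. In the pup it was 288 CPM, raised by 17 stomach cells labelled immune at 822 CPM.

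Krt19 and Krt7 moved with stage in columnar cells, and at E19 Krt19 was above Krt18 in both regions. At the GE-SCJ Krt19 was 618, 1073, 477 and 712 CPM from E15 to the adult, and it was 563, 1266 and 512 CPM in the stomach. Krt7 was 147, 150, 49.1 and 161 CPM at the GE-SCJ and 110, 149 and 52.7 CPM in the stomach. Both were thus lowest in the pup, where a UMI of Krt7 was found in 54.6% (48.7 to 60.5) of GE-SCJ and 56.1% (50.8 to 61.4) of stomach columnar cells, against 92.3% and 83.3% at E19 and 5.81% of pup immune cells. After each cell was thinned to 5000 UMIs, the pup shares for Krt7 were 22.5% and 20.2%, against 49.2% and 47.0% at E19, and in immune cells 6.90% and 6.35%. The stomach share of the pup then no longer cleared the upper bound of the immune share.

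Krt20 was low in columnar cells and concentrated in few of them. It reached 33.3 CPM in the E19 stomach (29.7 to 37.2), where 55 of 366 cells had a UMI, and 23.3 CPM in the pup stomach. GE-SCJ levels were 7.55, 2.93, 16.0 and 2.02 CPM from E15 to the adult, the last from 1 UMI. In the pup stomach 4 cells held at least 50% of the 266 Krt20 UMIs, and in the E19 stomach 12 cells held at least 50% of 318. Among groups of at least 20 cells Krt20 was highest in E19 GE-SCJ squamous cells, at 89.1 CPM (7 of 34 cells). There both classes together had too few UMIs to be tested. E15 squamous cells were at 17.3 CPM in the esophagus and 17.7 at the GE-SCJ, above 4.40 in E15 stomach columnar cells. Esophageal squamous cells were at 4.68 CPM at E19 and 5.14 in the pup, below the stomach columnar levels.

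From E15 to E19 the 4 tested columnar keratins stayed within 2-fold at the GE-SCJ, and Krt19 and Krt20 passed it in the stomach. Krt20 at the GE-SCJ was lower at E19, at 2.93 against 7.55 CPM, but its 10 and 21 UMIs were too few to be tested. At the GE-SCJ 0 of 4 tested keratins were called against 5.51% of all genes in either direction, although Krt8 was higher by 0.77 and Krt19 by 0.79 on the log2 scale. In the stomach 2 of 5 were called against 5.8% of all genes, Krt19 at 1.17 (1.10 to 1.24) and Krt20 at 2.84 (2.16 to 3.61), and Krt8 stood just inside 2-fold at 0.93. From E19 to the pup the direction turned. Krt7 fell by 1.61 (log2) and Krt19 fell by 1.17 at the GE-SCJ, where Krt20 was higher by 2.39, which made 3 of 5 called against 15.1% of all genes. In the stomach Krt7 fell by 1.50 and Krt19 fell by 1.31, which made 2 of 5 against 15.3%, and Krt20 changed by -0.52. Krt8 was again just inside the limit, at -0.89 and -0.97, and Krt18 was level at 0.01 and 0.03. The median of all genes was -0.23 and -0.25 in these pup comparisons. Without the 1% of cells richest in each gene, 4 keratins instead of 2 were called lower in the stomach. The share of all genes called was not computed for that setting.

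**Figure D1:**
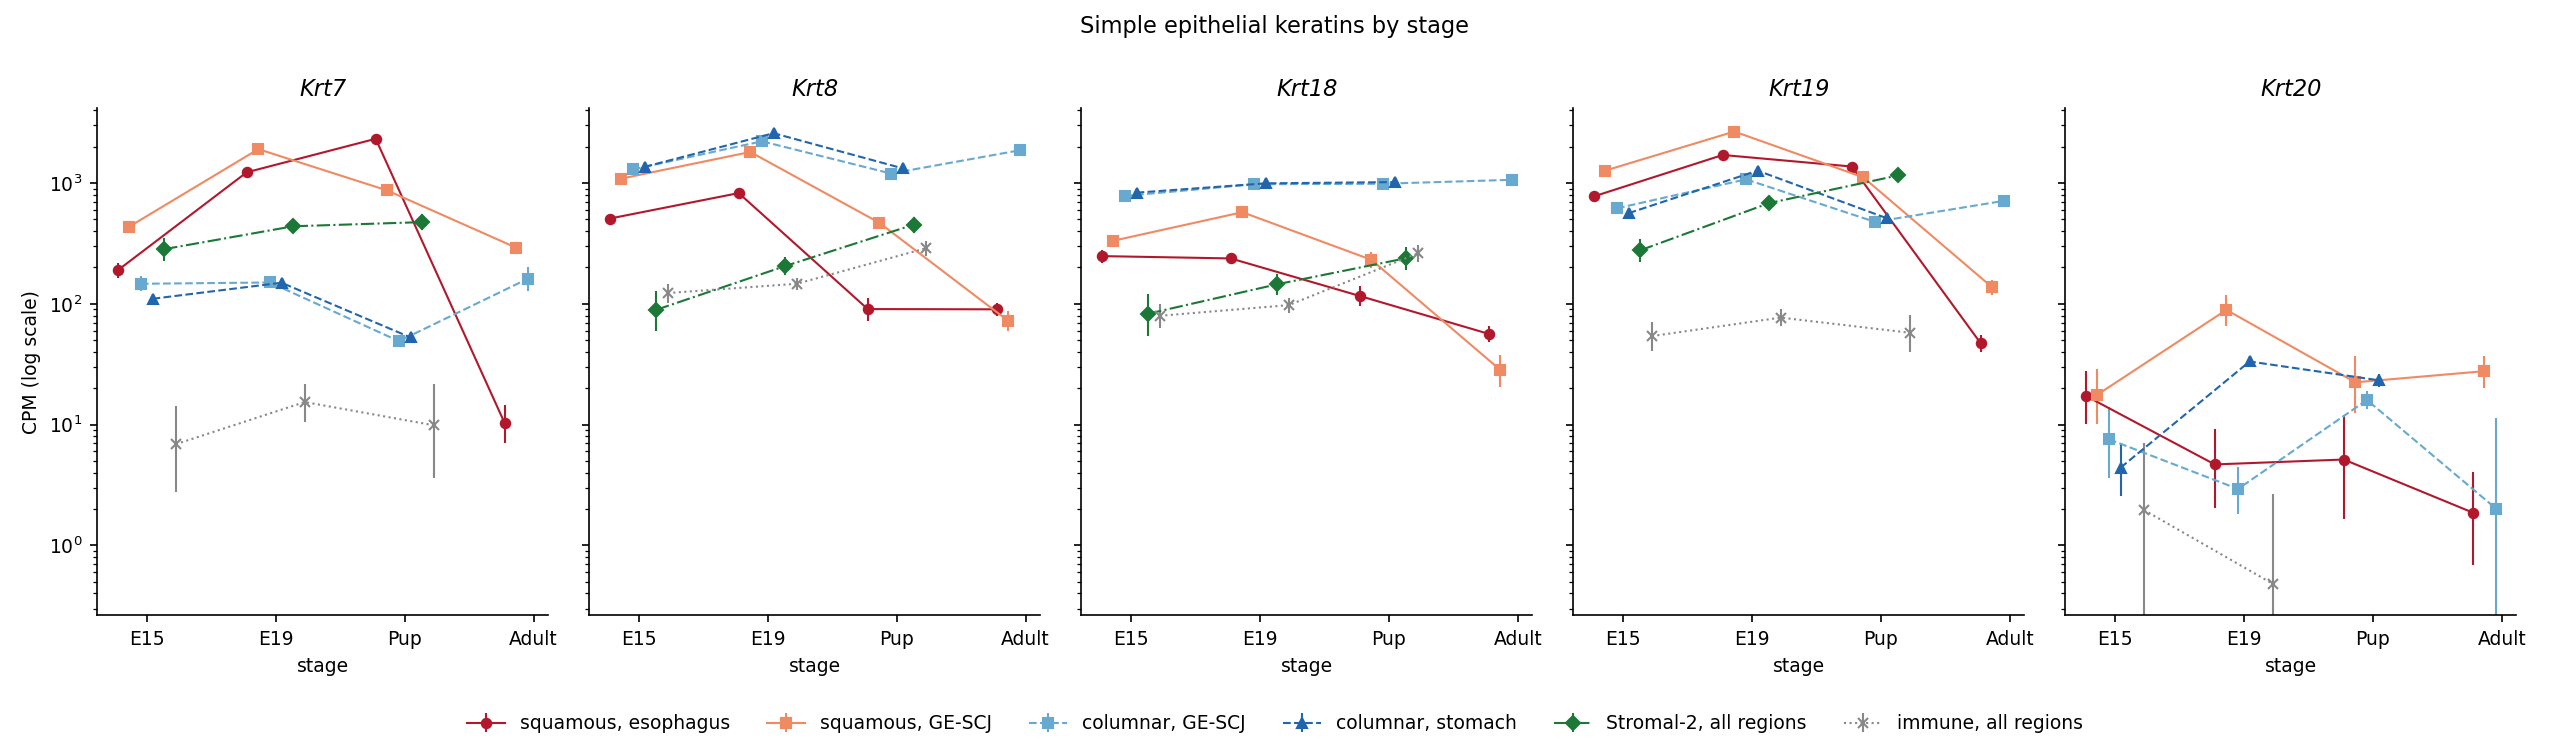
Level of each keratin in CPM (log axis) by stage in squamous cells of the esophagus and GE-SCJ, columnar cells of the GE-SCJ and stomach, and Stromal-2 and immune cells of all regions, for groups of at least 10 cells. Points are group levels and bars are Poisson 95% intervals, with levels of 0 left out. Krt8 and Krt18 stay between 783 and 2585 CPM in columnar cells of the GE-SCJ and stomach, while squamous levels of Krt7 and Krt19 reach their lowest values in the adult.

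Squamous cells carried the same keratins before birth and lost most of them by adulthood. In the esophagus, with 64, 123, 85 and 232 squamous cells at E15, E19, pup and adult, Krt8 was 508, 826, 90.5 and 90.0 CPM. At the GE-SCJ, with 47, 34, 46 and 87 cells, it was 1088, 1808, 469 and 72.1 CPM. At E19 the squamous level of the junction thus stood above the columnar levels of E15 and of the pup, and by adulthood Krt8 had fallen in both regions. Krt18 was lower than Krt8 except in the pup esophagus, with 248, 238, 116 and 56.4 CPM in the esophagus and 333, 573, 231 and 28.3 CPM at the GE-SCJ. Prenatal squamous cells with a UMI of Krt8 made up 76.6% and 91.1% in the esophagus and 100% and 94.1% at the junction. At E15 the esophageal share overlapped the interval of immune cells (62.2%), and after thinning to 5000 UMIs it was 65.5% against 38.8%. In the pup the Krt8 shares were 44.7% and 54.3% and those of Krt18 38.8% and 56.5%, with intervals that overlapped those of pup immune cells. The esophageal values were read as background. At the pup GE-SCJ the Krt8 level of 469 CPM (418 to 524) was above the 288 CPM of pup immune cells, with 6 of 46 cells over 1000 CPM and 3 cells holding at least 50% of the 314 UMIs.

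Krt19 was the most abundant member in prenatal squamous cells. From E15 to the adult it measured 775, 1707, 1369 and 47.0 CPM in the esophagus and 1268, 2669, 1114 and 137 CPM at the GE-SCJ. The E19 junction gave its highest level of any squamous, columnar or Stromal-2 group of 1 region and stage with at least 20 cells. Krt7 was 189, 1227, 2325 and 10.3 CPM in the esophagus and 436, 1908, 867 and 291 CPM at the GE-SCJ, so it was higher at E19 than at E15 in both regions. The share of esophageal squamous cells with a UMI of Krt7 was 59.4%, 75.6%, 63.5% and 8.19% over these stages, and at the GE-SCJ 97.9%, 91.2%, 95.7% and 48.3%.

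From E15 to E19, 2 of 4 tested keratins were called higher in squamous cells of each region, Krt7 at 2.69 (2.47 to 2.91) and Krt19 at 1.14 in the esophagus and at 2.13 and 1.07 at the GE-SCJ. Among all genes 7.61% and 13.1% were called in either direction. With only the first of the 2 squamous labels (Squamous Epithelial, without Squamous Epithelial-2) Krt7 was at 2.00 and 1.28 and Krt19, at 0.94 and 0.95, was no longer called. From E19 to the pup 2 of 4 were called lower in the esophagus, Krt8 at -3.17 and Krt18 at -1.02. Krt7 was at 0.92 and Krt19 at -0.32. Among all genes 28.2% were called in either direction, with 689 of 3511 lower. At the GE-SCJ all 4 were called lower, between -1.94 for Krt8 and -1.14 for Krt7. There 13.5% of all genes were called in either direction, with 144 of 1546 lower. Krt8 and Krt18 were thus lower in both regions. The Krt7 values rested on the mix of labels, since with the first label only Krt7 was at -2.96 in the esophagus and -0.54 at the GE-SCJ. When UMIs of mitochondrial, ribosomal protein and hemoglobin genes were not counted in the library size, every gene of the GE-SCJ comparison shifted by 0.27 and 2 of the 4 keratins were still called. Those transcripts held 39.7% of UMIs in pup GE-SCJ squamous cells against 27.2% at E19.

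From the pup to the adult, Krt7 fell by 7.78 and Krt19 fell by 4.85 (log2) in the esophagus, and Krt18 fell by 1.05. This made 3 of 4 called lower. Among all genes 32.4% were called in either direction, with 507 of 4899 lower. The Krt18 levels of both stages were read as background. Krt8 was already low and was level at -0.02. At the GE-SCJ all 4 were called lower, from -1.57 for Krt7 to -3.02 for Krt19. There 19.2% of all genes were called in either direction, with 345 of 2729 higher and 178 lower. Against E19 all 4 were called lower in the adult of both regions, with medians of -4.18 in the esophagus and -4.30 at the GE-SCJ. The medians of all genes were -0.18 and -0.10. Of all genes 16.8% and 21.2% were called in either direction, with 473 of 5735 and 271 of 2666 lower. Adult esophageal squamous levels of Krt7, Krt8, Krt18 and Krt19 did not exceed those of the 31 adult esophageal Stromal cells, which were 18.6, 111, 80.5 and 68.1 CPM at a median of 4906 UMIs against 9974 in the squamous cells. They were read as background. At the adult GE-SCJ the Krt7 share was 48.3%, or 29.9% after thinning, while 0 of 15 adult GE-SCJ Stromal cells had a UMI at a median of 6470 UMIs, which allows a share of cells with a UMI of up to 20%. Only 6 adult immune cells were present, and the upper bound of their Krt7 share, 64.1%, was above the squamous share.

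The high Krt7 level of the pup esophagus rested on a second squamous label. Of 40 cells with the label Squamous Epithelial-2, 29 came from the pup esophagus, where 56 cells carried the first squamous label. Krt7 was 5491 CPM (5264 to 5725) in the second and 96.3 CPM (72.6 to 125) in the first label, and Krt19 was 2823 against 347 CPM. All 29 cells of the second label had a UMI of both, and the log2 ratios were 5.81 for Krt7 and 3.02 for Krt19. Krt18 was higher at 1.58 (192 against 63.1 CPM) and Krt8, at 64.7 against 109 CPM, had too few UMIs to be tested. All 3 tested members were called, but so were 73.5% of all genes in either direction, with a median of -0.82 over all genes. The labels came from clustering of these same cells, so their difference is a description. Mitochondrial, ribosomal protein and hemoglobin genes held 4.72% of UMIs in the second and 39.9% in the first label, and without them in the library size all ratios were lower by 0.67 and Krt18, at 0.92, was no longer called.

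The second label also differed in other keratins and markers. Krt13, a suprabasal keratin, was at 6915 against 1456 CPM, while the basal keratins Krt5 and Krt14 were at 12.4 against 732 CPM and 2.49 against 406 CPM. Trp63, the basal squamous transcription factor, and Col17a1 were at 0. The mesothelial list summed to 3256 CPM in the second and 112 CPM in the first label, from 3 and 2 of its 6 genes, with Wt1, Lrrn4 and Gpm6a at 0 in both. Its part in the keratin levels was not tested. With the first label only, Krt7 in the pup esophagus changed by -2.96 (log2) from E19 in place of 0.92, and Krt19 by -2.10 in place of -0.32. From the pup to the adult, Krt19 then fell by 2.88, Krt18 changed by -0.19, and Krt7, at -3.21, had too few UMIs to be tested. At E19 the second label held 3 esophageal cells with 832 of 2097 Krt7 UMIs, and without them Krt7 was 763 CPM.

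**Figure D2:**
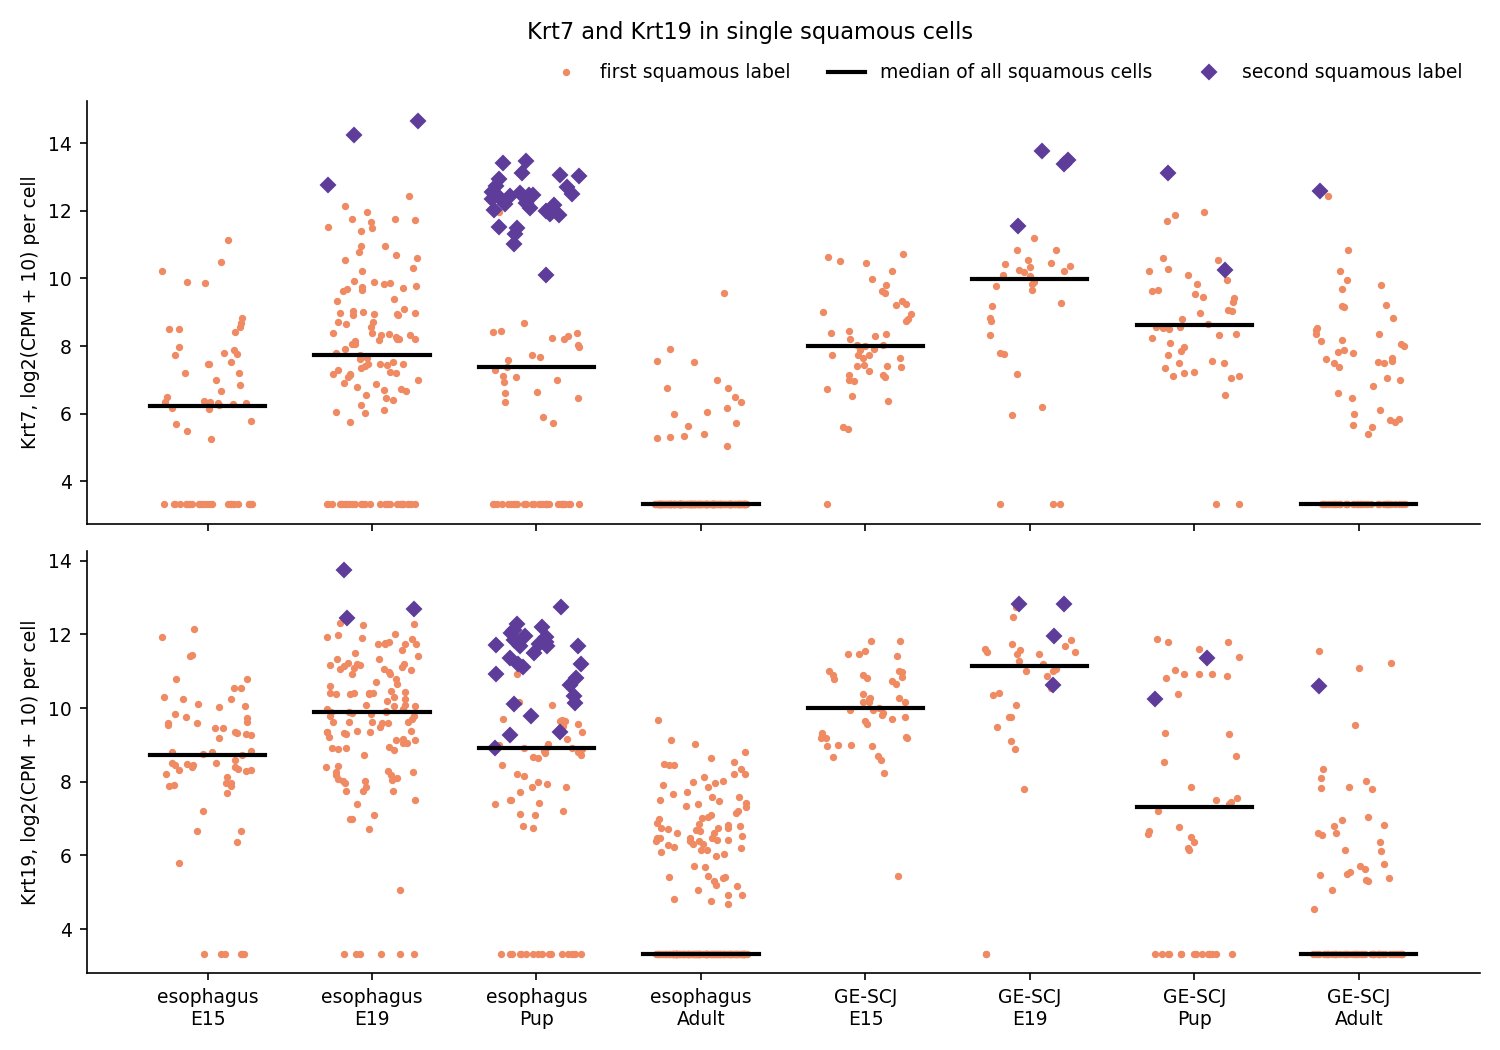
Krt7 and Krt19 in each squamous cell as log2(CPM + 10), by region and stage. Circles are cells of the first and diamonds cells of the second squamous label, and lines are medians over both. The 29 second-label cells of the pup esophagus sit above the first label for Krt7, and adult cells lie mostly at 0 UMIs.

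Within squamous groups the keratins were uneven between cells. In the E19 esophagus Krt7 had a median of 203 CPM per cell and a highest value of 25951 CPM, and 5 of 123 cells held at least 50% of its UMIs. Krt19 had a median of 937 CPM, and 12 cells held at least 50% of its UMIs. In the adult esophagus the median cell had 0 CPM of Krt7 and of Krt19. In the E19 columnar cells of the GE-SCJ, by contrast, 72 of 274 cells held at least 50% of the Krt8 UMIs, at a median of 2131 CPM per cell. Columnar Krt8 was thus spread over many cells in that group, and Krt7 in the E19 esophagus was held by few. Without the second squamous label, the highest Krt7 value there was 5567 CPM, and 7 of 120 cells held at least 50% of its UMIs.

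Across the 123 E19 esophageal squamous cells, Krt7 rose with Krt13 (Pearson r = 0.63 on log2 values) and ran against Trp63 (-0.61) and Krt5 (-0.55). In the 56 first-label pup cells the same relations were 0.14, -0.25 and -0.33, and in the 232 adult cells -0.01, -0.02 and -0.09. Krt19 ran with Krt13 at 0.73 in the 46 pup squamous cells of the GE-SCJ. In columnar cells Krt8 ran with Krt18 at 0.29 to 0.66 and with Krt19 at 0.54 to 0.76 over the 6 prenatal and pup groups. These correlations describe cells that share a library and differ in depth.

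In the adult GE-SCJ squamous cells, 1 cell held most of the Krt7 and Krt19 UMIs. It had 50389 UMIs and held 280 of 452 Krt7, 119 of 212 Krt19 and 40 of 43 Krt20 UMIs, together with 2151 UMIs of Krt13, and whether it was a doublet was not tested. It was 1 of 3 cells of that group whose nearest neighbours by expression were mostly prenatal cells. The keratins were not left out of that expression, so keratin levels without such cells depend partly on how the cells were picked. Without these 3 cells Krt7 was 107 CPM, Krt8 44.6, Krt18 25.7, Krt19 26.4 and Krt20 0 CPM in the other 84 cells. In the esophagus 2 of 232 adult squamous cells had such neighbours, and Krt7 was 9.15 and Krt8 78.9 CPM without them. Of the 19 adult GE-SCJ columnar cells 8 had them, and the other 11 measured 107 CPM for Krt7, 1527 for Krt8, 1074 for Krt18 and 547 for Krt19.

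**Figure D3:**
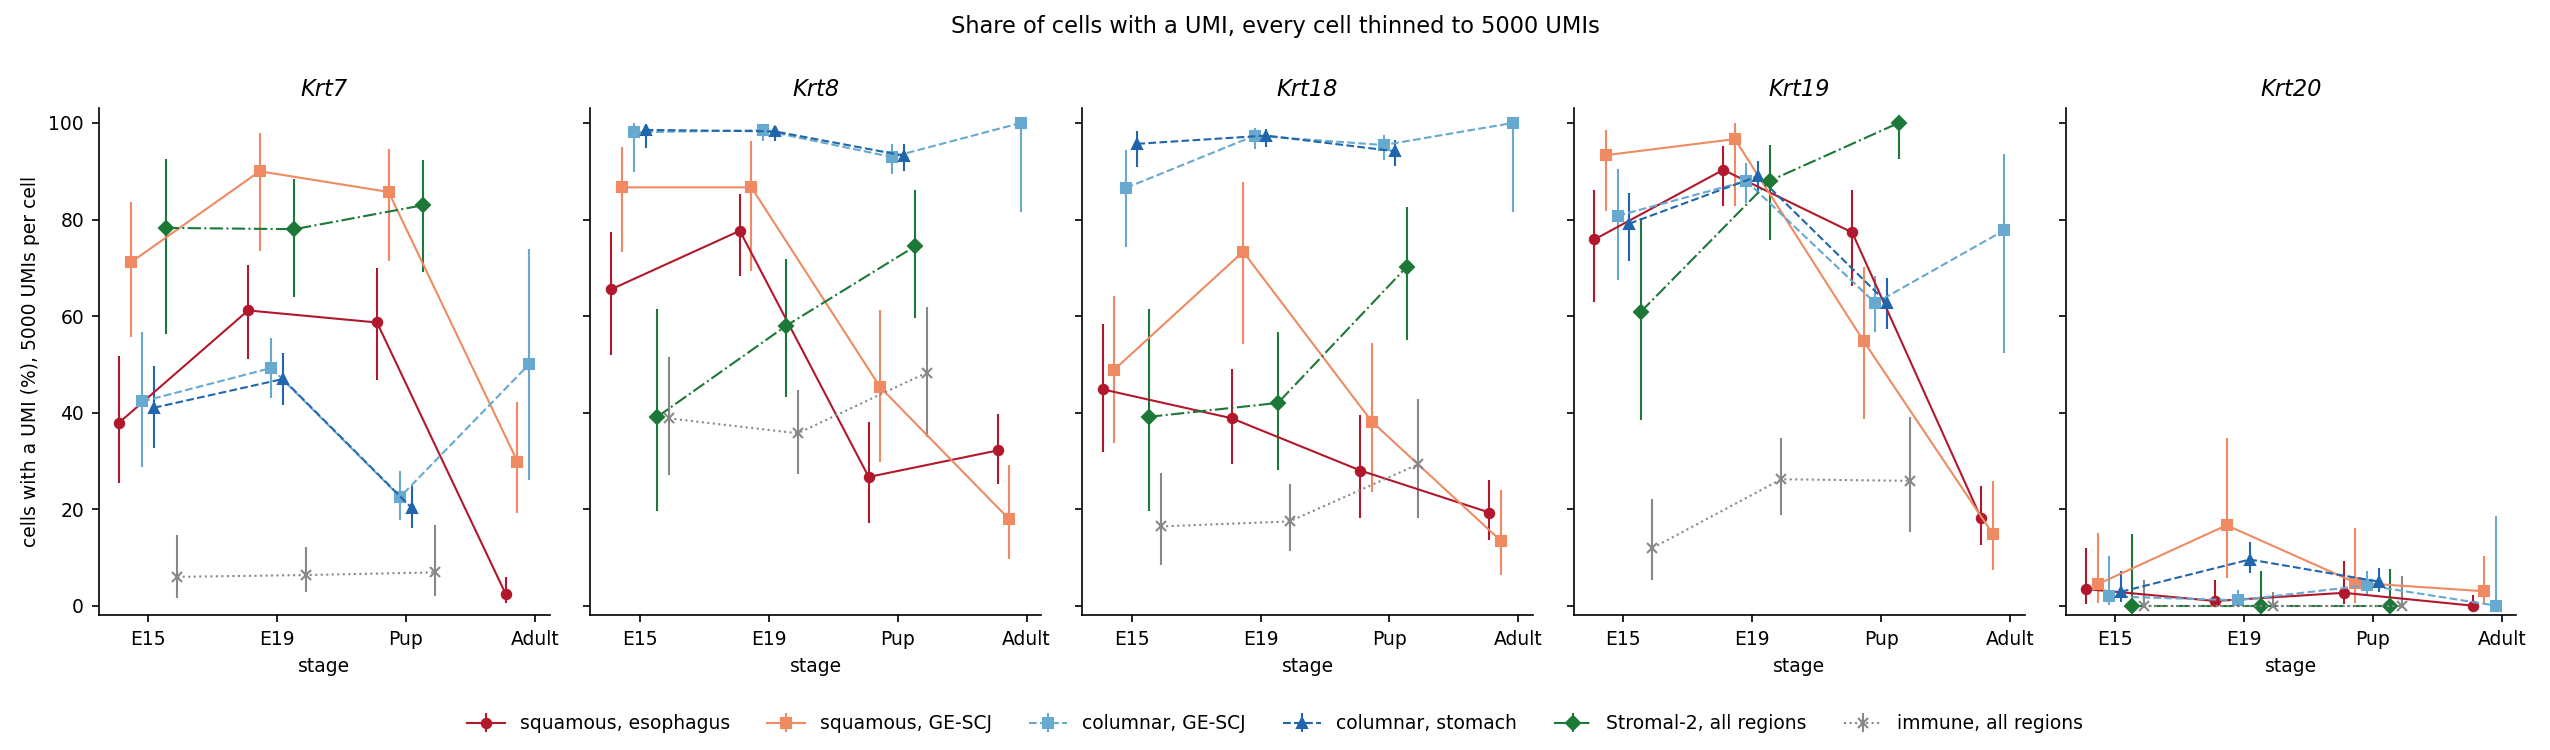
Percent of cells with at least 1 UMI of each keratin after thinning every cell to 5000 UMIs, by stage, in squamous and columnar cells by region and in Stromal-2 and immune cells of all regions, for groups with at least 10 such cells. Bars are Clopper-Pearson 95% intervals. Krt8 and Krt18 are found in 86.5% to 100% of thinned GE-SCJ and stomach columnar cells at every stage, and in 32.2% and 19.3% of adult esophageal squamous cells.

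At the GE-SCJ, where both lineages came from the same tag, the contrast between columnar and squamous cells was wider after birth for Krt8 and Krt18 and turned for Krt19. The log2 ratio of columnar over squamous was 0.25, 0.29, 1.35 and 4.68 for Krt8 at E15, E19, pup and adult, and 1.23, 0.76, 2.08 and 5.20 for Krt18. Adult squamous levels of both (72.1 and 28.3 CPM) lay inside the range of the other classes, so these adult ratios are against background. They were 3.97 and 4.60 with CPM averaged over cells. For Krt19 the ratio was -1.04, -1.32 and -1.23 before adulthood and 2.38 (2.13 to 2.63) in the adult. In the pup 4 of 46 squamous cells held at least 50% of the Krt19 UMIs, and the median squamous cell, at 149 CPM, was below the median columnar cell, at 248 CPM. Krt7 was on the squamous side at -1.57, -3.67 and -4.14, and its adult value of -0.84 became 0.28 without the 1% of cells richest in it. At E15 1 of 4 tested keratins was called higher in columnar cells, against 6.09% of all genes, and 2 lower, against 3.58%. At E19 0 of 4 were called higher (11.7%) and 2 lower (6.51%), and in the pup 2 of 5 higher (16.3%) and 2 lower (7.85%). In the adult 3 of 4 were called higher (13.9%) and 0 lower (15.4%), with a median of 3.53 over the members against 0.14 over all genes. Without the 3 squamous and 8 columnar adult cells with mostly prenatal neighbours, the adult ratio was 0.04 for Krt7 and 4.35 for Krt19. Since the keratins were not left out when these cells were picked, the choice itself can shift both ratios. With the first squamous label only, Krt7 was at -2.82 at E19. Without the mitochondrial, ribosomal and hemoglobin UMIs in the library size all pup ratios moved by -0.32.

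**Figure D4:**
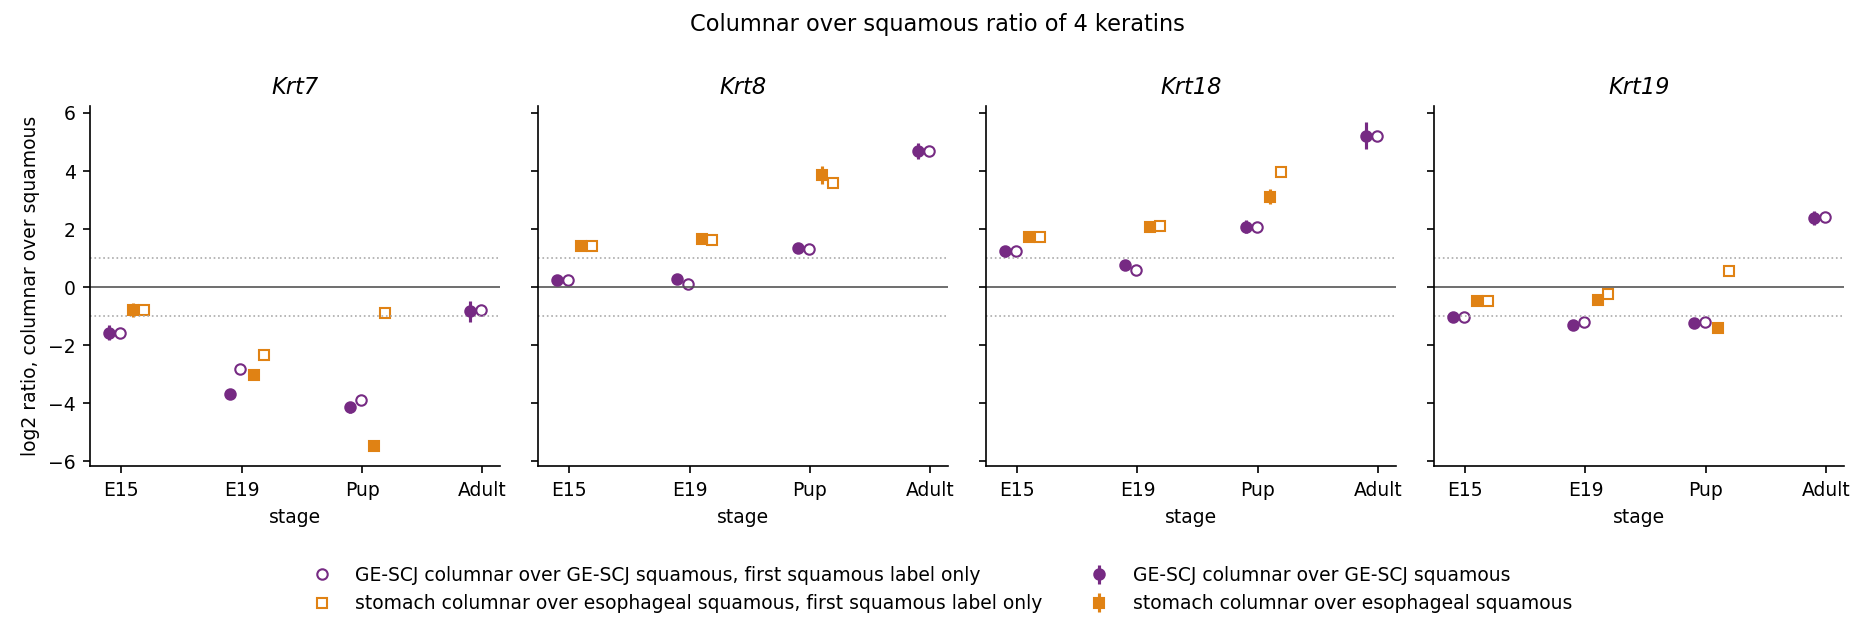
Log2 ratio of columnar over squamous CPM by stage for Krt7, Krt8, Krt18 and Krt19, at the GE-SCJ and between stomach columnar and esophageal squamous cells. Filled points use all squamous cells and open points the first squamous label only, bars are exact 95% intervals and dotted lines mark a 2-fold difference. Krt8 at the GE-SCJ goes from 0.25 at E15 to 4.68 in the adult, and Krt19 from -1.04 to 2.38.

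Between the tissues on either side, stomach columnar over esophageal squamous, Krt8 was at 1.42, 1.65 and 3.85 and Krt18 at 1.74, 2.06 and 3.12 from E15 to the pup. Pup esophageal squamous levels of both were read as background, so these pup ratios are against background. Krt7 was at -0.79, -3.04 and -5.46 and Krt19 at -0.46, -0.43 and -1.42. At E15 2 of 4 keratins were called higher in stomach columnar cells against 8.09% of all genes, and 0 lower against 6.36%. At E19 3 of 5 were called higher (12.1%), Krt20 among them at 2.67 (1.72 to 3.81), and 1 lower (8.2%). In the pup 3 of 5 were called higher (25.6%) and 2 lower (10.3%). With the first squamous label only, the pup ratio of Krt7 was -0.89 and that of Krt19 was 0.56, the opposite direction, and neither was called. Krt8 and Krt18 were thus already apart between the 2 tissues at E15, when Krt8 at the junction was not. The 2 comparisons share no cells, and their difference was not tested.

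Other keratins of a list of 17 with a row were nearly all on the squamous side. The highest in squamous cells were Krt13 at 13482 CPM, Krt4 at 8413 and Krt15 at 2583, against 55.3 CPM for Krt13 and 34.3 for Krt4 in columnar cells. At the GE-SCJ 5 of 5, 7 of 8, 9 of 10 and 13 of 13 tested list members were called lower in columnar cells at E15, E19, pup and adult, and 0 higher. Their medians lay between -6.67 and -6.42. The class labels came from clustering of these same cells and from known marker genes. Krt5, Krt14, Krt15, Krt4 and Krt13 of this list are also on the squamous marker list used here. The contrast in these keratins is therefore a description of the labels. Among 13 genes of the keratin network, such as the desmosome protein Dsp and the cytolinkers Ppl and Evpl, 4 of 4, 6 of 8, 6 of 7 and 5 of 6 tested were called lower in columnar cells, and Synm was higher at E19 and in the pup. From E19 to the adult, 9 of 13 tested list keratins were called higher in GE-SCJ squamous cells and Krt15 was lower. All 4 tested simple keratins were lower there, and 295 of 2666 genes were called higher. In esophageal squamous cells 5 of 11 list keratins were called higher and 3 lower, with 489 of 5735 genes called higher. The list median was 0.26 in the esophagus and 2.13 at the GE-SCJ.

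The mix of the members differed by class. The 5 members made up 94.4% of the UMIs of all 36 keratin genes in columnar, 7.12% in squamous and 79.0% in Stromal-2 cells, and 0.406% in adult esophageal squamous cells. In columnar cells Krt8 held 48.2%, Krt18 26.9% and Krt19 21.6% of the members' UMIs. In squamous cells Krt19 held 39.0% and Krt7 31.4%, and in Stromal-2 cells Krt19 held 46.8% and Krt7 26.9%. The squamous mix depended on the label, since in the pup esophagus Krt7 held 64.1% in the second squamous label and 15.5% in the first. The order changed with stage. At E15 Krt8 held more than Krt7 in squamous cells of both regions, and at E19 Krt19 held more than Krt18 in columnar cells of the GE-SCJ and stomach. In the 20 columnar cells of the E19 esophagus Krt18 held more, at 24.9% against 21.3%. In adult esophageal squamous cells Krt8 was in front with 43.8% of 660 member UMIs. Levels of that group were read as background, so its order is not taken as a change with stage. UMIs of Krt8 per UMI of Krt18 in columnar cells went from 1.66 at E15 to 2.27 at E19 and 1.22 in the pup at the GE-SCJ, and from 1.63 to 2.60 to 1.30 in the stomach. The type II members together had 0.84 to 1.19 UMIs per UMI of the type I members in the columnar groups of these regions. Krt8 has a listed pseudogene with no row of its own, and reads shared with it cannot be told apart here.

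**Figure D5:**
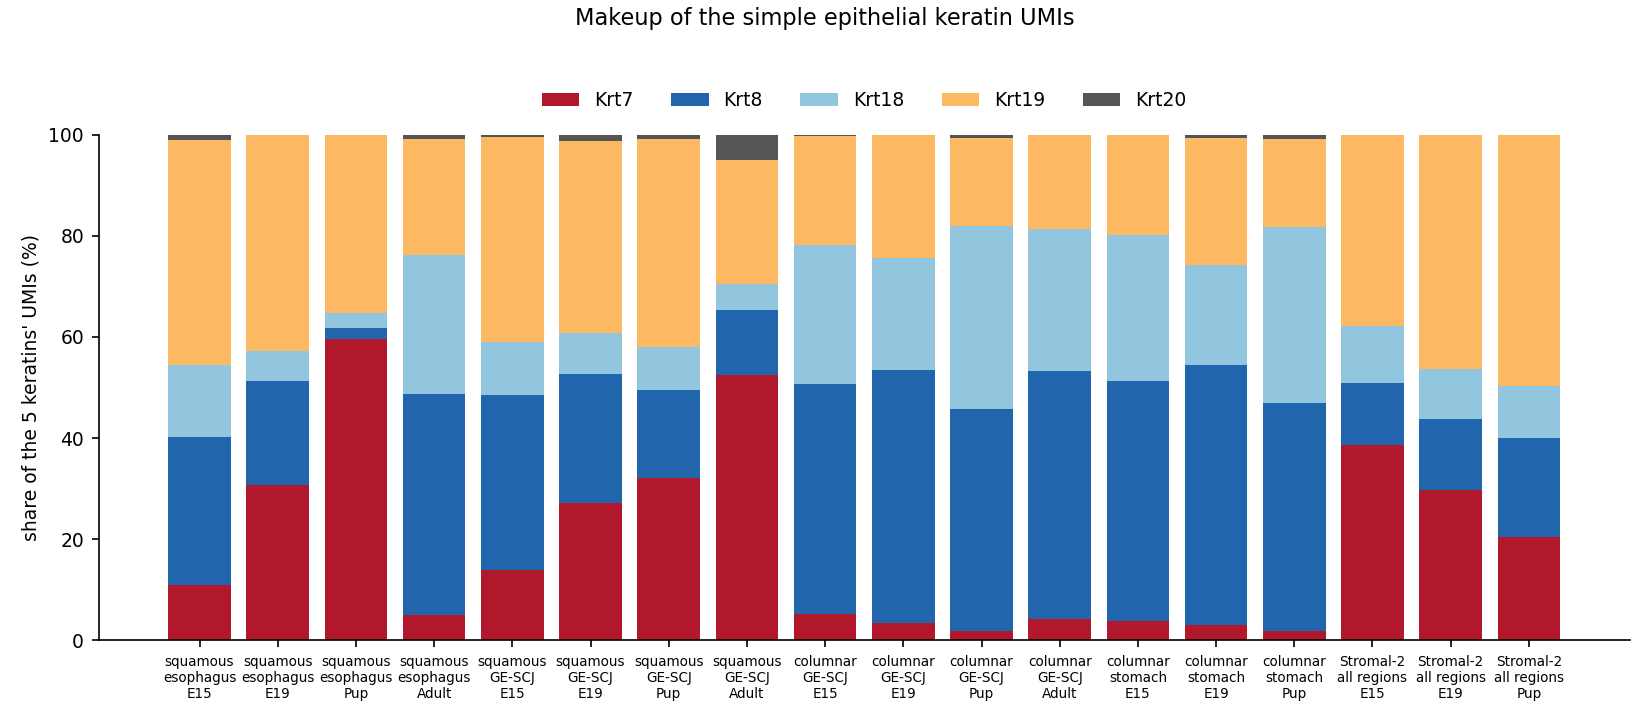
Share of each keratin in the summed UMIs of the 5 members (percent, stacked bars) for groups of squamous, columnar and Stromal-2 cells. Krt8 makes up 45.5% of member UMIs in GE-SCJ columnar cells at E15, and Krt7 59.5% in pup esophageal squamous cells.

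Stromal-2 cells expressed Krt7 and Krt19 without the squamous keratins in front. Over all regions, with 26, 60 and 52 cells from E15 to the pup, Krt7 was 283, 438 and 475 CPM. Krt19 was 277, 682 and 1156 CPM, Krt8 89.2, 205 and 453 CPM, and Krt18 82.8, 145 and 239 CPM. All 4 were thus higher at each later stage, while the summed mesothelial list went from 1481 to 2265 to 3707 CPM. For Krt7 the intervals at E19 (389 to 493) and in the pup (408 to 549) overlapped. The mix of regions differed too. The stomach gave 15 of 26 cells at E15 and 27 of 52 in the pup, and the GE-SCJ 46 of 60 at E19. The Krt8 level of immune cells, given above, was also higher at each later stage. At E15 the Krt8 level was below that of immune cells (123 CPM), and after thinning the Krt8 share did not clear the immune upper bound in any of the 3 region and stage groups compared. The adult had 1 such cell. A UMI of Krt7 was found in 88.5% (82.0 to 93.3) and of Krt19 in 89.9% (83.7 to 94.4) of the 139 cells, against 5.13% and 26.5% of Stromal cells at a median of 8940 UMIs. Krt20 was found in 0 of 139 cells, which allows a share of cells with a UMI of up to 2.16%.

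Against Stromal cells the log2 ratios were 5.73 for Krt7 (5.52 to 5.95), 4.24 for Krt19, 1.91 for Krt18 and 1.64 for Krt8, so 4 of 4 tested members were called higher against 9.86% of all genes. Within the E19 GE-SCJ, with 46 and 588 cells, they were 6.18, 4.24, 1.95 and 1.49, again 4 of 4 against 5.93%. Within the pup stomach, with 27 and 78 cells, 3 of 3 were called against 8.38%, Krt7 at 4.26, Krt19 at 3.72 and Krt8 at 1.05, which became 2.00 when cells under 1000 UMIs or over 10% mitochondrial UMIs were left out. In Stromal cells Krt8 and Krt18 were 79.8 and 41.8 CPM, inside the range of other classes, so their ratios are against background. The Stromal-2 levels over all regions and stages, 247 CPM for Krt8 and 156 CPM for Krt18, were also inside that range. It reached 257 and 182 CPM. Only the pup Stromal-2 levels, 453 and 239 CPM over all regions, were above it. Of the list of other keratins, 2 of 8 tested were called higher in Stromal-2 cells, Krt14 and Krt15, and of the network list 6 of 11, with Plec and Dsp among them. Krt15, the highest of the other keratins, was at 124 CPM, and Trp63 had no UMI in the E19 GE-SCJ group.

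Outside these classes the members were low. Over 37 groups of at least 20 cells of the other classes, Krt7 ranged from 0 to 24.9 CPM with a median of 7.77, Krt19 from 10.1 to 98.5 with a median of 45.4, and Krt18 from 23.1 to 182 with a median of 45.1. Krt8 ranged from 46.1 to 257 CPM with a median of 97.7, and Krt20 from 0 to 18.6 CPM. Krt7 therefore stood furthest above this background in squamous and Stromal-2 cells.

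Across 54 groups of all classes with at least 20 cells, the pattern of each member was compared with 11672 genes by Pearson r of log2(CPM + 10). Krt8 and Krt18 were each other's closest gene, at 0.96, and kept that rank with Spearman rho, with 1 CPM added or with groups of at least 50 cells. Krt7 and Krt19 were each other's closest at 0.91, but Krt19 was 15th for Krt7 by Spearman rho and 8th in the larger groups. In the other direction Krt7 was 20th for Krt19 by Spearman rho, 28th in the larger groups and 4th with 1 CPM added. After its partner, Krt8 was followed by Foxq1, Pls1, Misp and Smim22, Krt18 by Pls1, Prr15l, Foxq1 and Smim22, Krt7 by Epha1, Lratd1, Lmo7 and Por, and Krt19 by Epcam, Wfdc2, Spint2 and Lmo7. The closest genes to Krt20 were Sprr2a3 at 0.75, Fam83f, Adam28, Macc1 and Oit1. The groups share a library and fall into cell classes, so these values describe which genes rank together in it.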

How the data were processed

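Single cells of 11 region and stage groups were barcoded with tags and sequenced with the 10x 3′ v3.1 kit. The authors ran Cell Ranger 6.1.1 on build mm10 (submitters' processing notes), filtered and clustered the cells, and deposited a UMI count matrix with a region, stage and class label per cell and the percent of mitochondrial UMIs. Deposited cells had 519 to 79817 UMIs and at most 19.7% mitochondrial UMIs, 107865155 UMIs in all. Here no further filter was set and no doublet caller was run. Cells labelled Squamous Epithelial and Squamous Epithelial-2 formed the squamous class.

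UMI counts were summed per class, region and stage (Python 3.11.15, scipy 1.17.1). Log2 ratios had 1 UMI added to each sum and exact conditional 95% intervals. With mice pooled under each tag, every group is 1 sample, and no test or p-value was made. Shares were recomputed after thinning cells to 5000 UMIs. Neighbours of adult cells were the 15 nearest over 30 principal components of 2000 variable genes (scanpy 1.11.5), with the keratins not left out. Genes named are the 5 members, the 5 genes most similar to each, and the leading or called genes of fixed lists of other keratins and keratin network genes, with markers from fixed cell type lists. Members and lists were chosen with earlier results of these data known. Comparison code was tested on simulated data.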

Additional observations from a re-analysis of the deposited data

Results flagged for a closer look

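At the GE-SCJ, Krt19 changed sides between stages. Its log2 ratio of columnar over squamous cells went from -1.04 (E15) to -1.32 (E19) and -1.23 (pup), and to 2.38 in the adult. Without the adult cells that had mostly prenatal neighbours the adult value was 4.35. The keratins were not left out when those cells were picked, so the choice itself can shift this value. In the pup 4 of 46 squamous cells held at least 50% of the Krt19 UMIs, and the medians per cell (149 CPM squamous, 248 CPM columnar) and the thinned shares (54.8% and 62.7%) ran the other way. The difference between stages was not tested.

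From E19 to the pup, Krt7 in squamous cells changed by 0.92 (log2) in the esophagus and by -1.14 at the GE-SCJ. With the first squamous label only, the esophageal value was -2.96 and that of the GE-SCJ was -0.54. The difference between regions was not tested.

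From E19 to the pup, Krt20 in columnar cells changed by 2.39 at the GE-SCJ, from 21 UMIs to 131, and by -0.52 in the stomach, from 318 UMIs to 266. The difference between regions was not tested.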

How the results depend on the processing

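Counts of called keratins were recomputed under each alternative. With the first squamous label only, an alternative added after the data were seen, 1 keratin and stage pair in place of 3 was at least 2-fold higher in esophageal squamous than stomach columnar cells, and 2 in place of 4 squamous stage steps were at least 2-fold higher at the later stage. The pup ratio of Krt19 between the tissues then reversed, to 0.56. Of the 25 genes named as most similar, 12 were kept with 1 CPM added in place of 10, 4 with Spearman rho and 8 with groups of at least 50 cells. All other counts stayed within 1.5 times. Among log2 ratios of the members 613 values stayed within the counting interval of the reported value, 156 left it and 1 reversed. A change of sign was counted as reversed only for a called ratio. Ratios that were not called changed sign too, such as Krt7 from E19 to the pup in the esophagus, from 0.92 to -2.96 with the first squamous label only. Among the CPM values of the members 301 stayed and 204 left. The alternative that kept cells whose markers match their label had too few cells for Stromal-2 (5 of 139 matched) and for adult GE-SCJ columnar cells, so neither was run. No paired analysis was possible because no replicate is recorded within a region and stage. Depth limits Krt20 (1008 UMIs), and pooled mice leave the spread between animals unknown.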
